A study of Mus musculus with 8 samples.

Results

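The 10 genes of dorsoventral retinal patterning followed here were Tbx2, Tbx3, Tbx5, Vax2, Aldh1a1, Aldh1a2, Aldh1a3, Cyp26a1, Nr2f1, and Nr2f2. They were picked by name as 10 of the 21830 genes with a value in the deposited tables, and all 10 were found. The tables give gene expression by RNA sequencing in retinas of slc:ICR mice, with 8 libraries in all. Whole retinas were taken at E15 and E18, and retinas at P2, P5, and P8 were pooled and sorted with an antibody to Cd73 into a positive fraction (Cd73PC) and a negative one (Cd73NC). Cd73, the ecto-nucleotidase encoded by Nt5e, is on the surface of rod photoreceptors, so Cd73PC are rod enriched and Cd73NC are a mixture of the other retinal cells. There was 1 library for each condition, so no difference has a replicate check and no test was made. Values are FPKM (fragments scaled to exon length and to the number mapped in the library) with the lower and upper confidence bounds that were deposited with them, which cover uncertainty within a library only.

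The vertebrate eye is patterned along its dorsoventral axis by opposing signals. BMP4 on the dorsal side acts through the T-box factors Tbx5, Tbx2, and Tbx3, and Vax2, a homeobox factor, marks the ventral side. Retinoic acid is made by Aldh1a1 mainly in the dorsal retina and by Aldh1a3 mainly in the ventral retina, and between them Cyp26a1 and Cyp26c1 degrade retinoic acid in a horizontal stripe. The orphan nuclear receptors Nr2f1 (COUP-TFI) and Nr2f2 (COUP-TFII) act in regional identity of the optic cup, and both are also found in amacrine cells. The libraries were made from whole retinas or from cells pooled from them, so they hold no information on position, and a level here is an average over the dorsal and ventral sides.

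Cyp26a1 is the member whose promoter is best known to respond to retinoic acid, so its sequence was read beside that of Rarb, a retinoic acid receptor gene that is itself a textbook target and was singled out after the values were seen. The RefSeq promoter table (GRCm38.p6) holds windows for 5 members, Aldh1a1, Aldh1a2, Cyp26a1, Nr2f1, and Nr2f2. Each window has 300 bases, from 250 before to 50 after the transcription start. The letters of a retinoic acid response element were searched on both strands as GTTCA, a spacer of any 5 bases, and AGTTCA. It was found in 11 of 27025 genes (0.0407%), and of 80 genes listed here with a window only Cyp26a1 and Rarb held it. Both genes were taken up as known targets, so these matches were not independent of that knowledge. They say nothing of a response in these libraries. The 150 bases before the start are printed for both, with the repeat in capitals. It lay 32 to 17 bases upstream of the start on the reverse strand in Cyp26a1 and 52 to 37 bases upstream in Rarb. Both windows matched the mm9 genome at 1 place, and the printed bases are chr19:37772148-37772297 on the plus strand and chr14:17407991-17408140 on the minus strand.
Cyp26a1: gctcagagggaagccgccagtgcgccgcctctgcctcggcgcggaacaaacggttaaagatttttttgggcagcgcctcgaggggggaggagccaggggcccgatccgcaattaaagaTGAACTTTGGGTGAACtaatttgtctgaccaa
Rarb: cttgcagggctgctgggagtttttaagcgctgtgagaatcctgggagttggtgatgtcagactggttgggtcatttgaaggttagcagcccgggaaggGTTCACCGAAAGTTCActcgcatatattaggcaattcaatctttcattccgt
The match describes letters in a window and no binding was measured. Of other motifs searched on both strands, AGGTCA repeated after any 5 bases or after any 1 base was in none of the 80 listed genes, and the T-box element AGGTGTGA, held by 1.48% of genes, was in 1 of the 2 windows of Aldh1a1, the one at chr19:20566823-20567122 (mm9), far upstream of the gene start in the files, and not in the one at that start (chr19:20676208-20676507).

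The sort was checked first. Nt5e had FPKM 97.3, 131, and 124 in Cd73PC at P2, P5, and P8, against 2.43, 31.4, and 9.38 in Cd73NC. All 9 rod markers were higher in Cd73PC at each of the 3 stages, and 11 of 12 progenitor markers were lower. Rod RNA was also present in Cd73NC, where the summed FPKM of the rod markers was 65.6, 899, and 898, against 3330, 7690, and 13300 in Cd73PC. Among markers of other cells, 4 of 5 astrocyte and optic stalk markers and 5 of 6 microglia markers were higher in Cd73PC than in Cd73NC at P2, and all 5 astrocyte markers were lower at P5 and P8. Of 8 pigment epithelium markers, 4, 1, and 3 were higher in Cd73PC at P2, P5, and P8, with a summed FPKM of 69.7, 54.8, and 76.1 against 2.65, 37.8, and 38.5. Between 11153 and 12414 genes per library reached FPKM 1, and the depth of the libraries relative to E18 ranged from 0.965 to 1.62.

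The patterning genes were mostly lower in the rod enriched fraction. A gene is called lower or higher here when FPKM + 1 differed by at least 1.5-fold. In Cd73PC against Cd73NC, 7 of the 10 were lower at P2, when 14.4% of all genes were lower, 6 of 10 at P5 (15.6% of all genes), and 6 of 10 at P8 (18.6% of all genes). Of the genes that reached FPKM 1 in a library, 23.3%, 25.1%, and 29.6% were lower. None was higher, against 8.57%, 7.02%, and 7.54% of all genes. Tbx2, Tbx3, Aldh1a1, Cyp26a1, and Nr2f1 were lower at all 3 stages, as were 7.83% of all genes and 12.7% of those that reached FPKM 1. The median log2 ratio of the 10 was -1.30, -1.18, and -1.21 at P2, P5, and P8, and that of all genes was 0, 0, and -0.02. In these bulk samples fewer cells of a type and less RNA per cell cannot be told apart. Markers of other cells did not all go the same way at each stage. At P2, 4 of 8 bipolar markers were higher in Cd73PC and 0 were lower, with 6 below FPKM 1 in Cd73NC. At P5, 1 was higher and 5 were lower, and at P8 all 8 were lower. The median progenitor marker in Cd73PC was 25.3%, 23.5%, and 18.8% of its level in Cd73NC, and the median Muller glia marker was 47.2%, 29.6%, and 20% of it. Their part in the lower levels of the patterning genes was not tested.

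**Figure D1:**
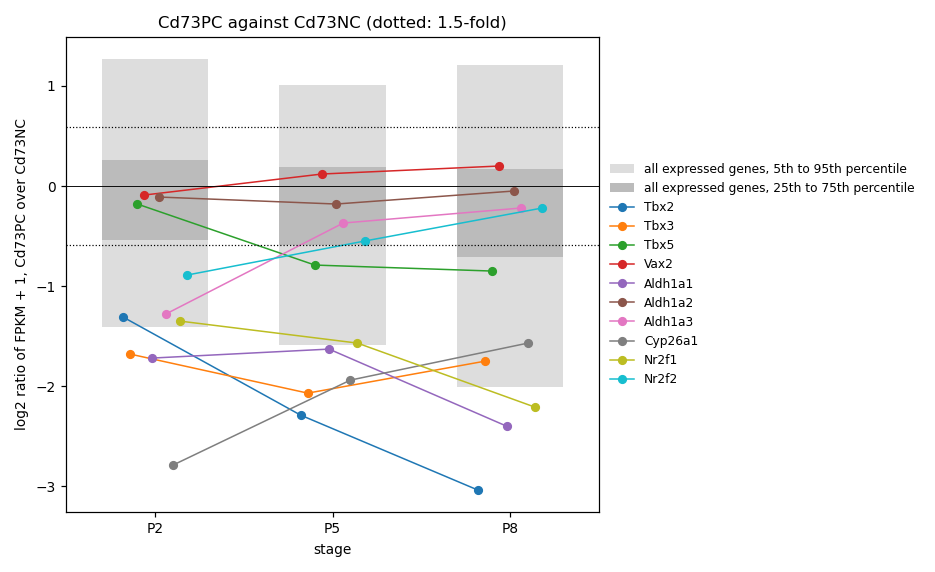
Log2 ratio of FPKM + 1 in Cd73PC over Cd73NC (vertical axis) at P2, P5, and P8 for the 10 patterning genes (points joined by gene), over the middle 50% and 90% of expressed genes (dark and light grey). Tbx2 goes from -1.31 to -3.04, and Vax2 stays between -0.09 and 0.20.

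Of the T-box genes of the dorsal side, Tbx2 had the highest FPKM and went in opposite directions from P2 to P8 in the fractions. Tbx2 (chr11:85646117-85655450, plus strand; all gene positions are in mm9) encodes a T-box repressor that acts in the dorsal optic cup. Its FPKM was 39.8 at E15 and 54.6 at E18, then 74.2, 73.0, and 148 in Cd73NC and 29.3, 14.1, and 17.1 in Cd73PC at P2, P5, and P8. P8 Cd73NC stood above every other library, and each Cd73PC library was below every whole retina and Cd73NC library. The log2 ratio between the fractions widened from -1.31 to -2.29 and -3.04, and at P8 the level in Cd73PC was 11.5% of that in Cd73NC. From P5 to P8 in Cd73NC, Tbx2 was the only one of the 10 that was higher, by 1.01 on the log2 scale, when 8.47% of all genes were. From P2 to P8 it was 0.99 higher in Cd73NC and 0.74 lower in Cd73PC on that scale, and 0.775% of all genes were higher in the first and lower in the second. The changes fell in different intervals, with the drop in Cd73PC from P2 to P5 and the rise in Cd73NC from P5 to P8. The summed FPKM of the 8 bipolar cell markers was 5.46, 77.3, and 1530 in Cd73NC and 57.8, 34.4, and 205 in Cd73PC at P2, P5, and P8. At P2, 4 of these markers in Cd73PC and 6 in Cd73NC were below FPKM 1, so the sums there rest on few genes. The part of bipolar cells in the level of Tbx2 was not tested. The deposited bounds of Tbx2 in Cd73NC at P8, 137 to 145, did not reach those of any other library, although the FPKM itself lay above its upper bound in the 3 Cd73NC libraries.

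Tbx3 followed a course of its own. It lies at chr5:120120678-120134610 on the plus strand and encodes a close relative of Tbx2 on the dorsal side. Its FPKM was 12.4 at E15, 15.3 at E18, 21.6, 14.5, and 5.59 in Cd73NC, and 6.06, 2.70, and 0.953 in Cd73PC. The level peaked in P2 Cd73NC, and FPKM decreased at each later stage in both fractions. The step from P2 to P5 in Cd73NC was within 1.5-fold (log2 ratio -0.54). At P8 in Cd73NC, Tbx3 was 1.24 below its P5 level on the log2 scale while Tbx2 was above its own. The ratio of their FPKM was therefore 3.21 at E15 and 26.5 in P8 Cd73NC. The log2 ratio of Tbx3 between the fractions was -1.68, -2.07, and -1.75.

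Tbx5 was the weakest of the T-box genes. It lies at chr5:120284672-120335227, downstream of Tbx3 on the same strand, and encodes the factor that acts upstream of ephrin B genes in the dorsal retina. Its FPKM was 4.15 at E15, 1.99 at E18, 1.86, 2.94, and 2.34 in Cd73NC, and 1.51, 1.27, and 0.852 in Cd73PC. E15 whole retina held the most, and its bounds of 3.51 to 4.78 did not overlap those of any other library. Tbx5 and Vax2 were the 2 members lower at E18 than at E15, by 0.79 and 0.59 on the log2 scale, when 2.1% of all genes were lower, and none of the 10 was higher, against 4.61% of all genes. Where the bounds had only to be apart, Tbx2, Tbx3, and Cyp26a1 were higher at E18 and 4 members lower. Between the fractions, Tbx5 was within 1.5-fold at P2 (log2 ratio -0.18) and lower in Cd73PC at P5 (-0.79) and P8 (-0.85). Under quantile normalization these ratios were -0.37 and -0.34, within 1.5-fold, and 5 of the 10 were then lower at each of P5 and P8.

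**Figure D2:**
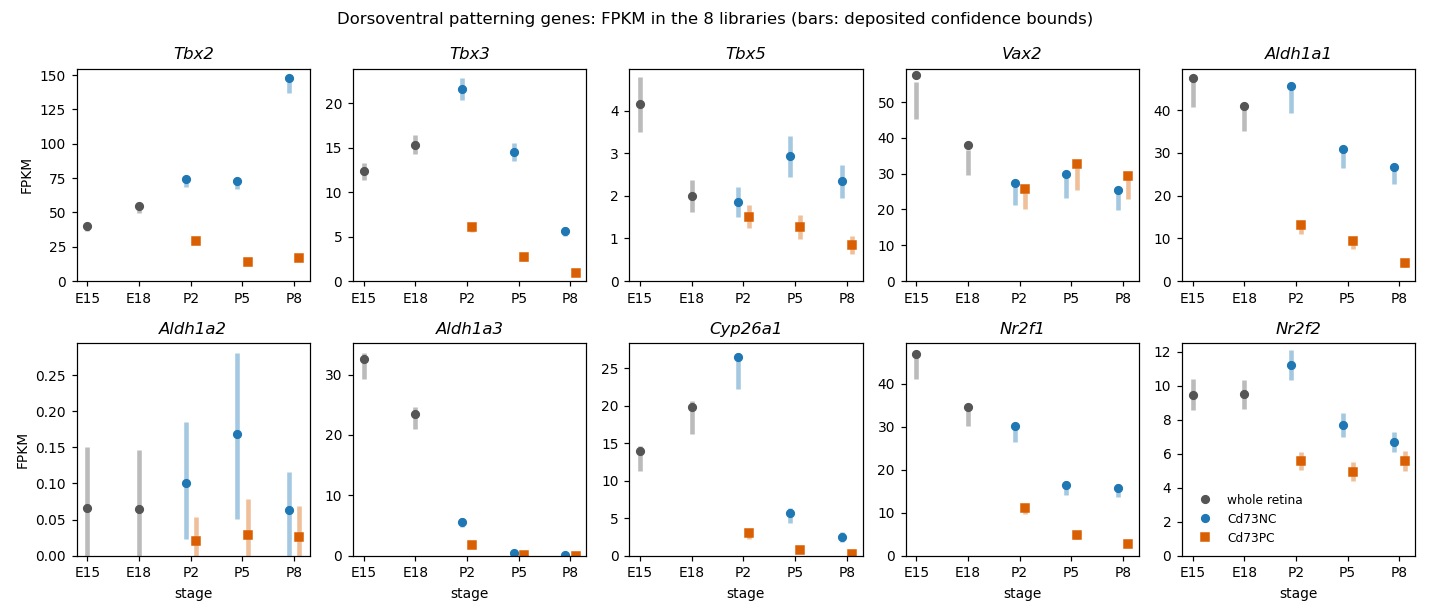
FPKM of the 10 patterning genes (vertical axes, each from 0) at E15 and E18 in whole retina (grey) and at P2, P5, and P8 in Cd73NC (blue circles) and Cd73PC (orange squares), with bars for the deposited confidence bounds. Vax2 points lie above their bars in all 8 libraries, since the deposited FPKM exceeds its own upper bound there, and Tbx2 in P8 Cd73NC reaches 148.

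Vax2 was within 1.5-fold between the fractions at each stage. It lies at chr6:83661258-83688298 on the plus strand and encodes the ventral homeobox factor that is needed for ventral identity of the retina. Its FPKM was 57.5 at E15 and 38.0 at E18, 27.3, 29.9, and 25.5 in Cd73NC, and 25.6, 32.6, and 29.3 in Cd73PC. E15 stood above the other 7 libraries, and the bounds of the postnatal libraries overlapped between neighbours in the order of levels. The log2 ratio between the fractions was -0.09, 0.12, and 0.20. Ratios within 1.5-fold at all 3 stages were also those of 62.6% of all genes and of 40.5% of those that reached FPKM 1 in a library. Aldh1a2, close to the floor, was the other member within it at all 3. The FPKM of Vax2 lay above its upper bound in all 8 libraries, as happened for 13 of the 80 member values, so its bounds are given only as deposited. In P8 Cd73PC the FPKM of Tbx2 was 0.583 of that of Vax2, and in P8 Cd73NC it was 5.81 times that of Vax2.

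The noncoding RNA genes Vax2os1 and Vax2os2, beside Vax2, differed from it between the fractions, and they were named after their values were seen. Vax2os1 had FPKM 9.71 and 8.09 at E15 and E18, 2.93, 1.67, and 1.47 in Cd73NC, and 4.62, 4.43, and 6.39 in Cd73PC. Vax2os2 had FPKM 2.32 and 0.690 in the embryonic retinas, 0.484, 0.401, and 0.736 in Cd73NC, and 0.704, 1.49, and 2.73 in Cd73PC. Both were higher in Cd73PC at P5 and P8, with log2 ratios of 1.03 and 1.58 for Vax2os1 and 0.83 and 1.10 for Vax2os2. The NCBIM37 annotation places a long noncoding RNA on the other strand that overlaps the Vax2 gene by 938 bases and shares 0 exon bases with it. The library kit did not keep strand. In Tbx3 and Nr2f1, 2.14% and 2.17% of exon bases were shared with a noncoding RNA on the other strand, and reads from these stretches cannot be told apart.

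The retinaldehyde dehydrogenases that make retinoic acid had separate courses. Aldh1a1, the dorsal enzyme (chr19:20676472-20717952, plus strand), had FPKM 47.5 at E15, 41.0 at E18, 45.6, 31.0, and 26.6 in Cd73NC, and 13.2, 9.30, and 4.24 in Cd73PC. Every Cd73PC library was below every other library, and the log2 ratio between the fractions was -1.72, -1.63, and -2.40. Aldh1a3, the ventral enzyme (chr7:73535779-73572363, minus strand), had FPKM 32.5 at E15, 23.5 at E18, 5.57, 0.504, and 0.206 in Cd73NC, and 1.70, 0.167, and 0.0326 in Cd73PC. Aldh1a3 was the 1 member lower in P2 Cd73NC than in E18 whole retina, by 1.90 on the log2 scale, when 8.2% of all genes were lower. The summed FPKM of the 10 ganglion cell markers was 632 and 25.2 in these libraries, their part in the lower level was not tested, and the change of stage and the sort cannot be told apart. Aldh1a3 was lower again from P2 to P5, by 2.13 in Cd73NC and 1.21 in Cd73PC. Between the fractions it was past 1.5-fold at P2 only (log2 ratio -1.28). Its ratios of -0.37 and -0.22 at P5 and P8 were held near 0 by the 1 added to FPKM, and the FPKM itself was 3.02 and 6.31 times as high in Cd73NC.

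The sum of Aldh1a1, Aldh1a2, and Aldh1a3 was FPKM 80.0 at E15 and 64.5 at E18, and reached 26.8 in Cd73NC and 4.29 in Cd73PC at P8. Aldh1a1 made up 59.3% of this sum at E15, 88.9% in P2 Cd73NC, and 99.0% in P8 Cd73NC. The shares were close in the 2 fractions, with Aldh1a3 at 10.9% and 11.4% of the sum at P2 and at 0.768% and 0.760% at P8 in Cd73NC and Cd73PC. Aldh1a1 shares 11.5% of its 36-base words, the length of a read, with its close relative Aldh1a7, whose FPKM was 4.8% to 8.86% of that of Aldh1a1, so both levels are uncertain by reads that fit both genes.

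Aldh1a2 was close to absent. It lies at chr9:71063596-71144050 on the plus strand and encodes the enzyme that makes retinoic acid in the tissue around the eye. Its FPKM was 0.0665 and 0.0642 at E15 and E18, 0.101, 0.168, and 0.0639 in Cd73NC, and 0.0199, 0.0288, and 0.0253 in Cd73PC. These values were whole multiples of 1 step once the depths were set equal, within 0.1 of a read, as 2, 2, 4, 6, and 3 reads and 1 read in each Cd73PC library would give. At so few reads no order of the libraries is given.

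Cyp26a1 had the widest gap between the fractions at P2. It lies at chr19:37772298-37776026 on the plus strand and encodes the cytochrome P450 that degrades retinoic acid in the stripe between the dorsal and ventral sides. Its FPKM was 14.0 at E15, 19.8 at E18, 26.5, 5.73, and 2.56 in Cd73NC, and 2.99, 0.751, and 0.198 in Cd73PC. The level was highest in P2 Cd73NC, and at every stage Cd73PC was below Cd73NC by more than the bounds of both. FPKM in Cd73NC was 8.89, 7.62, and 12.9 times that in Cd73PC. On the log2 scale of FPKM + 1 the ratio was -2.79, -1.94, and -1.57, which nears 0 as the level nears the added 1. At P2 the level in Cd73PC was 11.2% of that in Cd73NC. The 12 progenitor markers were at 18.4% (Fgf15) to 114% (Rax), with a median of 25.3%. Their part in the gap of Cyp26a1 was not tested. From P2 to P5 Cyp26a1 was lower by 2.03 in Cd73NC and 1.19 in Cd73PC on the log2 scale.

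Nr2f1 and Nr2f2 parted in the rod enriched fraction. Both encode COUP transcription factors, and only 0.641% and 0.854% of their 36-base words occur in another gene. Nr2f1 (chr13:78328236-78338243, minus strand) had FPKM 46.9 at E15, 34.6 at E18, 30.2, 16.4, and 15.8 in Cd73NC, and 11.2, 4.86, and 2.65 in Cd73PC. Each Cd73PC library was below all others, and the log2 ratio between the fractions was -1.35, -1.57, and -2.21. Nr2f2 (chr7:77496836-77511632, minus strand) had FPKM 9.47 at E15, 9.49 at E18, 11.2, 7.69, and 6.68 in Cd73NC, and 5.59, 4.94, and 5.58 in Cd73PC. Its range was narrow, and its log2 ratio between the fractions went from -0.89 to -0.55 and then to -0.22, and at P8 the bounds of the fractions overlapped. The FPKM of Nr2f1 was 4.96 times that of Nr2f2 at E15 and 0.475 times that of it in P8 Cd73PC.

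Between stages within a fraction, calls among the 10 were mostly downward. From P2 to P5 in Cd73NC, Aldh1a3, Cyp26a1, and Nr2f1 were lower (3 of 10, against 9.51% of all genes). From P5 to P8 in Cd73NC, Tbx3 and Cyp26a1 were lower (2 of 10, against 7.79% of all genes). In Cd73PC, Tbx2, Tbx3, Aldh1a3, Cyp26a1, and Nr2f1 were lower from P2 to P5 (5 of 10, against 8.57% of all genes), and Tbx3, Aldh1a1, and Nr2f1 from P5 to P8 (3 of 10, against 4.78% of all genes). In P2 Cd73PC against E18 whole retina, 7 of 10 were lower, against 18.3% of all genes. These comparisons share libraries with each other and with those between the fractions.

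Other genes of retinoic acid handling took varied courses. Of 11 genes for retinoid supply and binding, 3, 3, and 2 were lower in Cd73PC and 3, 1, and 1 were higher at P2, P5, and P8. These counts of lower genes are near the shares over all genes, 14.4%, 15.6%, and 18.6%, or over genes that reached FPKM 1 in a library, 23.3%, 25.1%, and 29.6%, and say nothing particular of the list. The counts of the other lists stand against the same shares. Dhrs3, which turns retinaldehyde back to retinol, was higher in Cd73PC at each stage, with FPKM 2.11, 4.57, and 8.26 in Cd73NC and 4.08, 28.2, and 65.2 in Cd73PC. The retinoic acid binding protein genes Crabp1 and Crabp2, named after their values were seen, ended low in both fractions. Crabp2 had FPKM 132 at E15, 36.4 at E18, and 18.9, 1.24, and 0.503 in Cd73NC. Crabp1 had FPKM 270 in P2 Cd73NC and 12.7 in P5 Cd73NC.

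Of the 3 degrading enzymes, Cyp26c1 had a course like that of Cyp26a1 at a lower level, with FPKM 2.28, 0.808, and 0.324 in Cd73NC, 0.484 and 0.0876 in Cd73PC at P2 and P5, and a listed 0 in P8 Cd73PC. Cyp26b1 did not exceed FPKM 0.361 in any library. Of 6 receptors, Rxra and Rxrg were higher in Cd73PC at each stage, with Rxrg at FPKM 26.9, 22.6, and 8.48 against 3.48, 6.31, and 2.06 in Cd73NC. Rarb had FPKM 4.75 at E15, 6.02 at E18, 8.33, 6.74, and 3.33 in Cd73NC, and 3.71, 3.34, and 2.25 in Cd73PC. Like Cyp26a1 it was highest in P2 Cd73NC, with log2 ratios between the fractions of -0.99, -0.83, and -0.41. Of the 8 retinoic acid responsive genes, which include Cyp26a1, 5, 4, and 3 were lower in Cd73PC and 2, 1, and 1 higher.

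**Figure D3:**
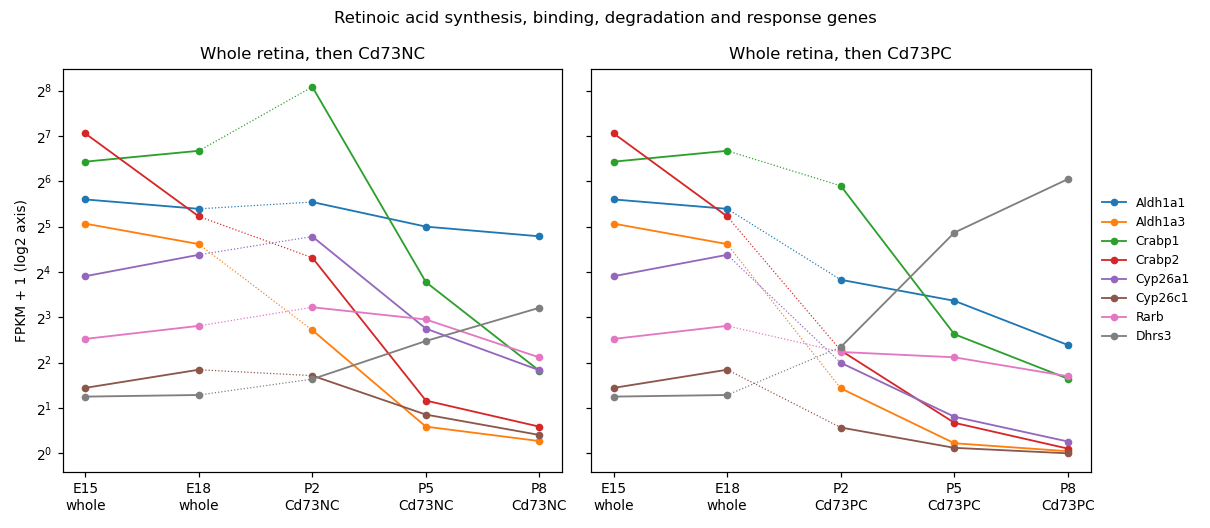
FPKM + 1 on a log2 axis for 8 genes of retinoic acid synthesis, binding, degradation, and response, in whole retina at E15 and E18 and then in Cd73NC (left) or Cd73PC (right), 1 library per point, with dotted lines joining whole retina to sorted cells. Dhrs3 reaches FPKM 65.2 in P8 Cd73PC, while Aldh1a3, Crabp2, and Cyp26a1 go to near 0.

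The signals and targets around the dorsoventral genes were read in the same way. Bmp4, the dorsal signal, did not exceed FPKM 0.505 in any library. Of 19 BMP pathway genes, 7, 9, and 7 were lower in Cd73PC at P2, P5, and P8, when 14.4%, 15.6%, and 18.6% of all genes were lower, and 1, 0, and 0 were higher. Id1 and Id2, which BMP signals induce in many cells, had FPKM 72.8 and 100 in P2 Cd73NC against 25.4 and 33.0 in P2 Cd73PC. Vax1, the relative of Vax2 in the optic stalk, did not exceed FPKM 2.36.

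Ephrin B ligands and their receptors, which carry dorsoventral position to ganglion cell axons, were lower in Cd73PC as a group. All 8 were lower at each of the 3 stages, as were 7.83% of all genes, with median log2 ratios of -1.45, -1.44, and -1.73. The median of the 12 progenitor markers was -1.94, -1.87, and -1.96, and its part in the ephrin B levels was not tested. Efnb2, which is dorsal, had FPKM 40.8, 33.3, and 27.0 in Cd73NC and 8.99, 5.63, and 3.78 in Cd73PC. Efnb1 had FPKM 21.7, 19.1, and 13.8 in Cd73NC and 6.17, 3.51, and 2.07 in Cd73PC. Genes of the nasotemporal axis, the other axis of the retinal map, were lower in 6, 7, and 8 of 11 cases. Of all genes, 14.4%, 15.6%, and 18.6% were lower. Among them Epha4 had FPKM 10, 6.94, and 16.7 in Cd73NC and 2.20, 0.834, and 1.88 in Cd73PC, with its highest level in P8 Cd73NC. From P5 to P8 in Cd73NC, 2 of the 11 were higher, Epha4 among them, 2 were lower, and 7 were within 1.5-fold.

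**Figure D4:**
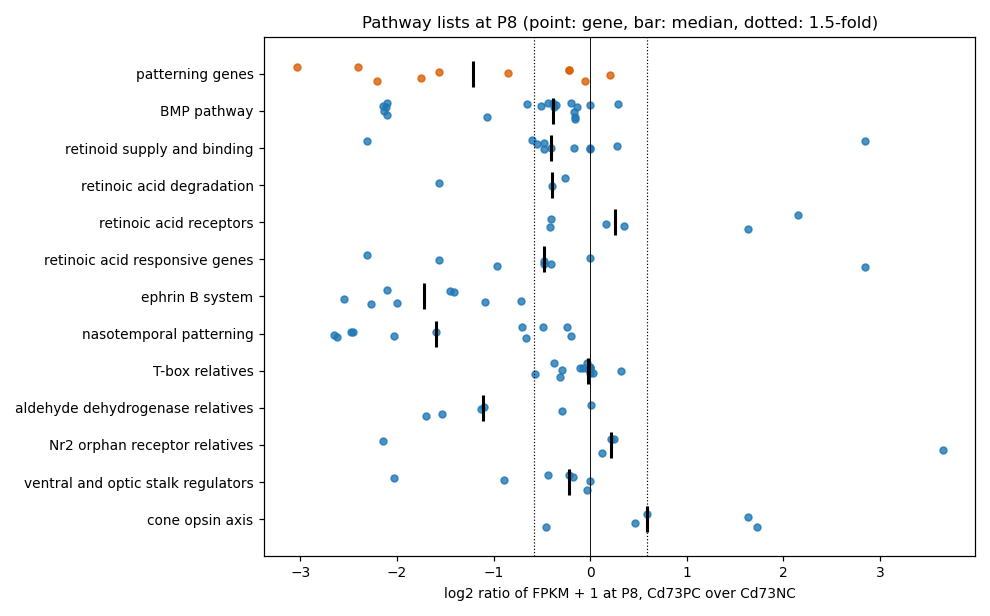
Log2 ratio of FPKM + 1 in Cd73PC over Cd73NC at P8 (horizontal axis) for the genes (points) of each list, with the list's median as a black bar and 1.5-fold as dotted lines. The 8 ephrin B genes all lie left of the lower line, and the 10 patterning genes (orange) have a median of -1.21.

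Relatives of the members by family had varied calls. Of 14 other T-box genes, 2, 0, and 0 were lower in Cd73PC. Only 5 of the 14 reached FPKM 1 in a library, so most could hardly be called on FPKM + 1. The count at P2 is near the 14.4% of all genes and says nothing particular of the family. Eomes, which acts in ganglion cells, had FPKM 24.9 at E15 and 0.219 in P8 Cd73NC. Of 6 other aldehyde dehydrogenases, 1, 4, and 4 were lower in Cd73PC, among them Aldh2 with FPKM 12 in P8 Cd73NC and 3.51 in P8 Cd73PC. Of the 5 other Nr2 receptors, Nr2e3, a rod transcription factor, was higher in Cd73PC with FPKM 950, 1430, and 1140, and Nr2e1, a progenitor factor, was lower, with FPKM 11.2 in Cd73NC and 1.77 in Cd73PC at P8. Nr2f6, the closest relative of Nr2f1 and Nr2f2 in the list, had FPKM 12.2 and 14.7 in Cd73NC and Cd73PC at P8.

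Among the members, the closest courses over the 8 libraries were those of Aldh1a1 and Nr2f1, with a Pearson correlation of 0.97 on log2(FPKM + 1), and Tbx3 correlated with Aldh1a1 and with Cyp26a1 at 0.95. The only correlation below 0 was that of Vax2 with Tbx2, at -0.18, and the highest for Vax2 was 0.75, with Aldh1a3. Of all genes, those most like Tbx2 were Cadm4 (0.982), Khdrbs3 (0.980), and Epha4 (0.980), those most like Tbx3 were Cdh20, Nrarp, and Psat1 (0.995 to 0.993), and those most like Vax2 were Stk32a, Foxp1, and Gm6537 (0.966 to 0.954). Those most like Aldh1a1 were Rgs12, Tox2, and Id3 (0.995 each). Of the alternative lists, 15 of 16 kept fewer than 2 of the 3 genes, so these names depend on the measure and on the libraries used. Tbx5 and Aldh1a2 were too low for a list. These are descriptions over 8 libraries that share stages and fractions.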

How the data were processed

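RNA from whole retinas (E15, E18) and Cd73 sorted fractions (P2, P5, P8) was sequenced as single-end reads of 36 bases. The authors aligned reads to NCBI37/mm9 with TopHat2 2.0.8b and deposited FPKM per gene with confidence bounds from Cufflinks 2.1.1 at default settings, 23021 rows per library. Failed rows (4 to 10 per library, 0 of them members) were taken as missing, 794 small RNA rows were left out, and rows of 234 symbols with more than 1 row were summed. Absolute depth is unknown, and the only read counts used here are those inferred for Aldh1a2 from relative depth. Genes past 1.5-fold on FPKM + 1 were counted, and fold changes are on the log2(FPKM + 1) scale, which understates those of low genes. Of each pathway list the 2 genes with the largest mean ratio between the fractions were named, with close relatives, Bmp4, Nt5e, and cell type markers, and for likeness the 3 best correlated genes of 10860. A gene that this rule names is not reported here. Coordinates are mm9, and 97.9% of 21745 genes overlapped the NCBIM37 annotation. The members and lists were chosen with earlier results of these data known. Scripts (Python 3.11.15, numpy 2.4.6, pandas 2.3.3, matplotlib 3.10.9) were tested on simulated data. Alternatives were other pseudocounts, filters, scalings, thresholds, and row rules.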

Additional observations from a re-analysis of the deposited data

Results flagged for a closer look

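Tbx2 and Pax2 differed between P8 and P2 in opposite directions in the fractions. Tbx2 was 0.99 higher at P8 than at P2 in Cd73NC and fell by 0.74 in Cd73PC, on the log2 scale of FPKM + 1. Pax2, an optic stalk and astrocyte factor that belongs to the ventral regulators listed here, was 1.44 higher in Cd73NC and fell by 1.57 in Cd73PC. Its FPKM was 0.0925, 3.32, and 1.96 in Cd73NC and 3.71, 0.966, and 0.591 in Cd73PC at P2, P5, and P8. Of all genes 0.775% were higher in Cd73NC and lower in Cd73PC past 1.5-fold. With 1 library per condition the difference between the fractions was not tested. The summed FPKM of the 5 astrocyte and optic stalk markers, Pax2 among them, was 2.90 and 25.1 in Cd73NC and 26.0 and 8.52 in Cd73PC at P2 and P8.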

How the results depend on the processing

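Of 90 alternative counts of members past 1.5-fold, 78 stayed within 1.5 times the value as reported, including all those between the fractions, which had 0 members higher in Cd73PC under every alternative run. The others were between stages. With a threshold of 2-fold, 0 members in place of 2 were past it for E18 against E15, and 0 in place of 3 for P8 against P5 in Cd73PC. Calling a difference where the bounds did not overlap gave 7 (3 higher and 4 lower) in place of 2 lower for E18 against E15, 5 (3 higher and 2 lower) in place of 1 lower for P2 Cd73NC against E18, which turns the more common direction, 7 (1 higher and 6 lower) in place of 3 lower for P5 against P2 in Cd73NC, and 5 (1 higher and 4 lower) in place of 3 lower for P8 against P5 in Cd73PC. A pseudocount of 0.01 gave 2 (1 higher and 1 lower) in place of 1 for P2 Cd73NC against E18, 5 (2 higher and 3 lower) in place of 3 for P5 against P2 in Cd73NC, and 5 in place of 3 for P8 against P5 in either fraction, and 0.1 gave 5 in both of the latter. Of 196 alternative log2 ratios of single members, 16 moved by more than 1.5-fold, all with smaller pseudocounts and in the direction of a larger gap, among them Cyp26a1 at P8 from -1.57 to -3.62 and Aldh1a3 at P8 from -0.22 to -2.34. Quantile normalization shifted the median of expressed genes by up to 0.24 on the log2 scale, at P8, and moved no member ratio by more than 1.5-fold, but it ended the call of Tbx5 between the fractions at P5 and P8. Chosen after seeing the data, leaving out the P5 libraries kept the same 5 members lower in Cd73PC at both other stages (9.03% of all genes), and leaving out the P2 libraries added Tbx5 for 6 (11.6%). Of the lists of most like genes, 15 of 16 alternatives kept fewer than 2 of the 3 genes. No paired analysis was possible within a stage because each stage has 1 pair of fractions, sorted from the same retinas. A fit over the 3 pairs would take the stages as replicates and was not made. No library could be left out within a condition. Absolute depth is unknown, so levels near that of Aldh1a2 could not be ordered.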

Other observations

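Cone genes of the dorsoventral opsin axis were also read. In mouse, the short wave opsin gene Opn1sw is used mostly in ventral cones and the middle wave opsin gene Opn1mw mostly in dorsal cones. Opn1sw had FPKM 0.497 at E15, 39.8 at E18, 26.2, 99.4, and 55.2 in Cd73NC, and 86.2, 79.6, and 76.5 in Cd73PC. Opn1mw did not exceed FPKM 0.135 before P8, where it was 4.10 in Cd73NC and 2.72 in Cd73PC. Thrb, a thyroid hormone receptor gene of cones, had FPKM 5.40, 7.28, and 4.94 in Cd73NC and 15.0, 18.5, and 18.7 in Cd73PC.

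Genes of the ventral and optic stalk side had varied courses. Six3, an eye field factor, had FPKM 96.5, 70.9, and 61.2 in Cd73NC and 43.2, 21.9, and 14.2 in Cd73PC. Gli1, a target of hedgehog signals, had FPKM 36.2 at E15, 43.7 at E18, 14.0, 1.40, and 0.216 in Cd73NC, and 2.56, 0.257, and 0.0754 in Cd73PC.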
